A study of Mus musculus with 12 samples.

Results

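The 10 mRNAs described here, *Pecam1*, *Cdh5*, *Kdr*, *Flt1*, *Tek*, *Tie1*, *Cldn5*, *Emcn*, *Esam* and *Aqp1*, are markers of endothelium, the cell layer that lines blood vessels. They were chosen by name, with earlier results of these data known. All 10 of 10 were found by NCBI Gene ID among the 27179 genes of the count table. Each had at least 487 counts in every muscle, and all 10 were among the 15502 genes kept by the filter on low counts. The experiment compared tibialis anterior (TA) muscles of wild-type male C57BL/6N mice that were 6 to 8 weeks old at arrival. In each of 6 mice, 1 TA was electroporated with 10 μg of empty pcDNA3 plasmid (Control) and the opposite TA with 10 μg of plasmid carrying the full-length human long non-coding RNA *FRAIL1* under a cytomegalovirus promoter (*FRAIL1*). Both groups were treated with hyaluronidase before electroporation, and poly(A)-selected RNA of the whole TA was sequenced at day 7, with n = 6 muscles from different mice in each group. *FRAIL1* is a human transcript outside the mouse gene table, so its level and the share of fibers that took up plasmid were not measured here. The question addressed is whether the mRNAs of vessel-lining cells differed between muscles with forced *FRAIL1* expression and their controls.

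Skeletal muscle fibers are supplied by a dense bed of capillaries whose walls are a single endothelial layer. Vascular endothelial growth factor (VEGF) acts on endothelial cells through the receptor encoded by *Kdr*, while the receptor encoded by *Flt1* binds VEGF tightly and can limit its action, in part as a soluble form. Angiopoietins act through the receptor encoded by *Tek* (TIE2), with which the related TIE1 associates, and this pathway maintains quiescent vessels. The cells are held together by junction proteins that include PECAM1, VE-cadherin (*Cdh5*), claudin-5 (*Cldn5*) and ESAM, and they carry the sialomucin endomucin (*Emcn*) and the water channel aquaporin-1 (*Aqp1*) on their surface.

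Total counts ranged from 44848322 to 60527385 per muscle, and levels are given as CPM (counts scaled to library size) after TMM scaling. *FRAIL1* muscle 5 stood apart from the other libraries, at 59.5 on the first principal component of log2 CPM against 25.8 for the next muscle, and with a TMM factor of 1.19 against 0.935 to 1.07 in the others. Counts of the mitochondrial genome made up 9.12% to 11.4% of the library in Control and 6.58% to 9.90% in *FRAIL1* muscles. For part of the results, values without *FRAIL1* muscle 5 are also given.

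Every one of the 10 marker mRNAs had a lower fitted level in *FRAIL1* than in Control muscles. The differences were modest, and most did not pass the test in the main fit, which treated the muscles as unpaired. *Tek* and *Flt1* fell by 0.41 and 0.48 on the log2 scale and were the 2 of 10 with a p-value under 0.05 after Benjamini-Hochberg adjustment over all genes tested (quasi-likelihood F-test in edgeR). Across all genes tested, 1.85% were called lower, 4.43% higher and 6.28% in either direction. At an unadjusted p-value under 0.05 there were 6 of the 10 and 27.7% of all genes tested. The median log2 fold change of the 10 mRNAs was -0.21, against 0.01 for all genes tested, of which 48.4% lay below 0. Leaving out *FRAIL1* muscle 5 gave a median of -0.22 and 4 of 10 called lower, against 2.52% of all genes. With the replicate number as a block, 4 of 10 were called lower, against 6.62% of all genes tested. Levels in CPM are relative to the rest of the library, so the amount of endothelial RNA in a muscle was not measured. In RNA from whole tissue, fewer endothelial cells and less RNA per endothelial cell cannot be told apart.

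**Figure D1:**
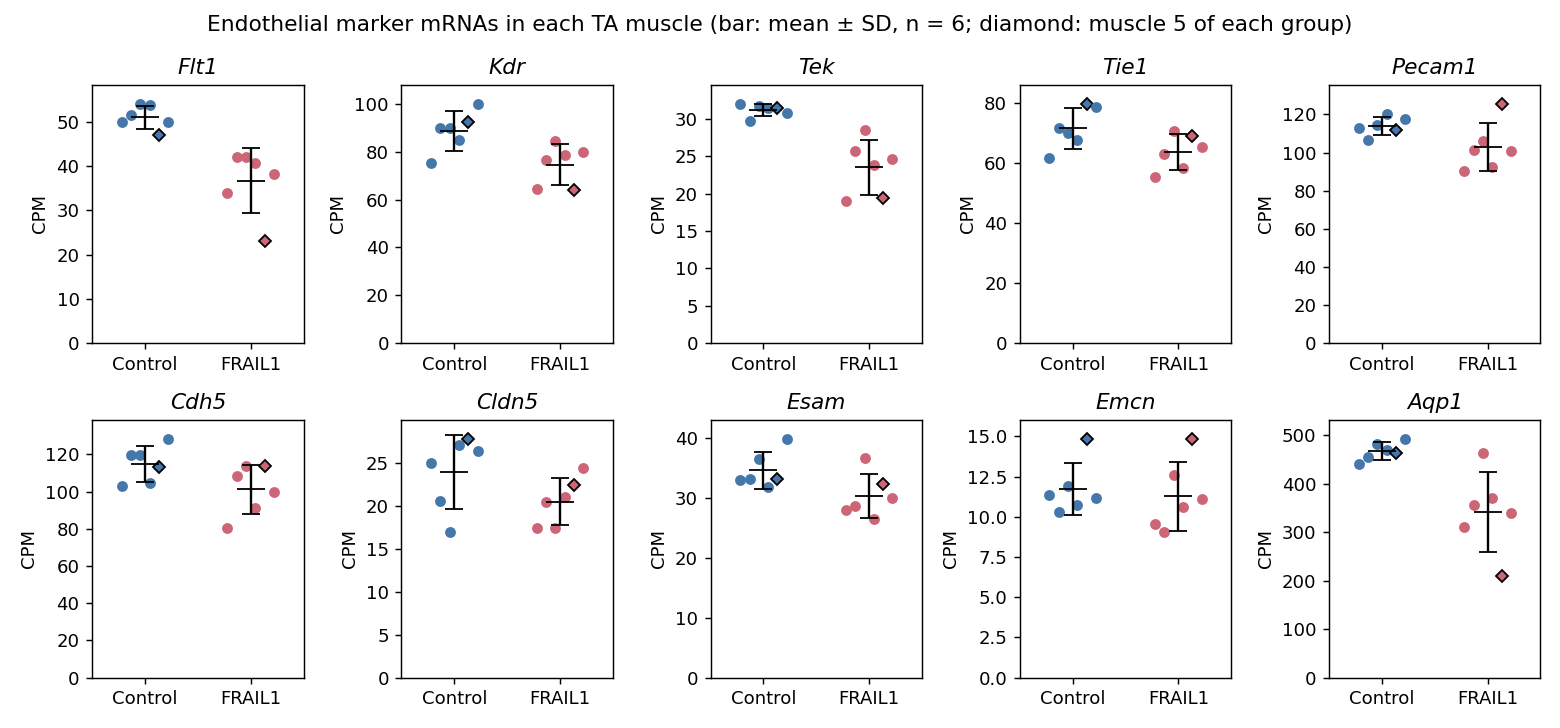
Each panel plots the CPM of 1 marker mRNA (vertical axis, from 0) in the 6 Control and 6 FRAIL1 muscles (points; diamonds are the muscles numbered 5), with the mean ± SD. The groups do not overlap for Flt1 and Tek, and FRAIL1 muscle 5 is the lowest of 12 for Flt1, Kdr and Aqp1 but not for the junction mRNAs.

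As the fold changes of *Tek*, *Flt1* and *Aqp1* were the largest of the 10, the 150 bases before their RefSeq start sites (GRCm38.p6) are shown, with matches to 4 short motifs of factors used at endothelial and general promoters in capitals. The letters searched for ETS factors were AGGAAG. For the GATA family of factors the search used the letters AGATAA. For SOX factors the letters looked for were AACAAT. The TATA box, where the general machinery binds, was searched as TATAAA. Both strands were searched, and no match overlapped another. The stretch of *Tek* lies at chr4:94739139-94739288 on the plus strand, that of *Flt1* at chr5:147726012-147726161 on the minus strand and that of *Aqp1* at chr6:55336149-55336298 on the plus strand.
Tek: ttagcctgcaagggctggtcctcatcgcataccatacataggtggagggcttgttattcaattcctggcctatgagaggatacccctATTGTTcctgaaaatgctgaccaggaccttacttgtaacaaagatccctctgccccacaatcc
Flt1: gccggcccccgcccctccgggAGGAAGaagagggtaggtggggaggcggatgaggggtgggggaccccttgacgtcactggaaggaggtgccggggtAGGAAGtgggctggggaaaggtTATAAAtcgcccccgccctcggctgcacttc
Aqp1: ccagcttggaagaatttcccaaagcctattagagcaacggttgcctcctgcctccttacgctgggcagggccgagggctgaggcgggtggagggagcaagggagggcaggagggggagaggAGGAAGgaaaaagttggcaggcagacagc

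The capitals mark a SOX match on the minus strand of *Tek* that begins 63 bases before the start, a pair of ETS matches 129 and 53 bases before the start of *Flt1* with a TATA box 31 bases before it, and an ETS match 29 bases before the start of *Aqp1*. The start sites used for *Tek* and *Flt1* lie 203 and 427 bases inside the RefSeq gene. RefSeq promoters of 300 bases (250 before and 50 after the start) were at hand for 7 of the 10 mRNAs, and those of *Pecam1*, *Cdh5* and *Esam* are named only. Over these 300 bases the ETS letters were present in 4 of 7 (*Flt1*, *Tie1*, *Emcn* and *Aqp1*) and in 35.4% of all 32851 promoters. The SOX letters were present in 2 of 7 (*Tek* and *Emcn*) and 10.7% of all, the GATA letters in 1 of 7 (*Tek*, after the start) and 11.2% of all, and the TATA letters in 1 of 7 (*Flt1*) and 13.6% of all. These matches describe letters only. The mRNAs with and without a match to ETS are found on both sides of the threshold, with *Flt1* holding it and *Tek* lacking it.

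Of the VEGF receptors, *Flt1* was the mRNA with the largest fall of the 10 and *Kdr* did not pass the test. *Flt1* (VEGF receptor 1; Gene ID 14254; chromosome 5 of GRCm38, 147561604 to 147726438) measured between 47.0 and 54.1 CPM in Control muscles, with a median of 50.8, and between 23.2 and 42.2 CPM in *FRAIL1* muscles, with a median of 39.5. All 6 *FRAIL1* muscles lay below the lowest Control muscle, a separation in this direction that 1.77% of all genes tested had. The means were 51.1 ± 2.66 CPM (SD, n = 6) and 36.7 ± 7.33 CPM (SD, n = 6), or -0.48 ± 0.117 on the log2 scale (standard error; edgeR adjusted p = 0.0326). *FRAIL1* muscle 5 was the lowest for *Flt1* by a wide gap, with the next muscle at 33.9 CPM. Without that muscle the log2 fold change was -0.38 and the adjusted p-value 0.00303. The call was lost in 7 of the 12 fits that left out 1 muscle, without Control muscle 1 (adjusted p = 0.0638), 2 (0.0647), 3 (0.0690), 4 (0.0616) or 6 (0.0547) and without *FRAIL1* muscle 1 (0.0704) or 6 (0.0511), while the fold change stayed between -0.52 and -0.38.

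*Kdr* (VEGF receptor 2, the main signalling receptor; Gene ID 16542; chromosome 5, 75932827 to 75979072) ranged from 75.2 to 100.02 CPM in Control muscles, with a median of 90.0, and from 64.2 to 84.5 CPM in *FRAIL1* muscles, with a median of 77.6. The groups overlapped, because Control muscle 1 lay within the range of the *FRAIL1* muscles. On the log2 scale *Kdr* was at -0.25 ± 0.0823 (standard error; edgeR adjusted p = 0.0743). It passed the threshold only without *FRAIL1* muscle 3, at a log2 fold change of -0.29 and an adjusted p-value of 0.0360, among the 12 fits that left out 1 muscle. *FRAIL1* muscle 5 was the lowest for *Kdr*, and without that muscle the log2 fold change was -0.21 (edgeR adjusted p = 0.113).

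Of the angiopoietin receptors, *Tek* fell and *Tie1* did not pass the test. *Tek* (TIE2; Gene ID 21687; chromosome 4 of GRCm38, 94739086 to 94874976) measured between 29.7 and 32.0 CPM in Control muscles, with a median of 31.5, and between 19.0 and 28.5 CPM in *FRAIL1* muscles, with a median of 24.3. The Control muscles were closer together for *Tek* than for any other of the 10 mRNAs, with a coefficient of variation of 2.65%, and the groups did not overlap. Means were 31.2 ± 0.828 CPM (SD, n = 6) and 23.5 ± 3.71 CPM (SD, n = 6), a fall of 24.5% in the mean. In the fit *Tek* was at -0.41 ± 0.0872 (standard error; edgeR adjusted p = 0.0186), and 4.09% of all genes tested had a lower one. *Tek* passed the threshold under all 24 alternative settings, with adjusted p-values between 2.99e-04 and 0.0446. *FRAIL1* muscles 1 and 5 were the lowest for *Tek*, at 19.0 and 19.5 CPM, and without muscle 5 the log2 fold change was -0.36 and the adjusted p-value 0.0160.

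*Tie1* (the related receptor; Gene ID 21846; chromosome 4, 118471191 to 118489849) ranged from 61.8 to 79.6 CPM in Control and from 55.2 to 70.5 CPM in *FRAIL1* muscles, with medians of 70.7 and 64.3. The groups overlapped, and 2 of 6 *FRAIL1* muscles lay below the lowest Control muscle. Its log2 fold change was -0.17 ± 0.0760 (standard error; edgeR adjusted p = 0.162), and in no fit that left out 1 muscle did *Tie1* pass the threshold.

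None of the 4 junction mRNAs passed the test, although each had a log2 fold change between -0.22 and -0.15. *Pecam1* (an adhesion molecule of endothelial contacts; Gene ID 18613; chromosome 11, 106654213 to 106715281) ranged from 106 to 120.1 CPM in Control and from 90.5 to 125 CPM in *FRAIL1* muscles, with medians of 114 and 101. For *Pecam1*, 5 of 6 *FRAIL1* muscles lay below the lowest Control muscle, and *FRAIL1* muscle 5 lay above all Control muscles. Fitted over all muscles *Pecam1* was at -0.15 ± 0.0736 (standard error; edgeR adjusted p = 0.204). Without *FRAIL1* muscle 5 it was -0.21, with an adjusted p-value of 0.0309.

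*Cdh5* (VE-cadherin, the adhesion protein of endothelial adherens junctions; Gene ID 12562; chromosome 8, 104101613 to 104144504) ranged from 103 to 128 CPM in Control and from 80.3 to 114 CPM in *FRAIL1* muscles, with medians of 117 and 104. Its groups overlapped, and the log2 fold change of *Cdh5* was -0.18 ± 0.0875 (standard error; edgeR adjusted p = 0.188). *Esam* (an adhesion molecule of tight junctions; Gene ID 69524; chromosome 9, 37528089 to 37538319) ranged from 31.9 to 39.9 CPM in Control and from 26.6 to 36.7 CPM in *FRAIL1* muscles, with medians of 33.2 and 29.3. Its log2 difference was -0.19 ± 0.0801 (standard error; edgeR adjusted p = 0.144). Among the fits that left out 1 muscle, *Esam* passed the threshold only without *FRAIL1* muscle 3, at -0.25 and an adjusted p-value of 0.0346. For *Esam*, *FRAIL1* muscle 3 was the highest of its group.

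*Cldn5* (claudin-5, the sealing protein of endothelial tight junctions; Gene ID 12741; chromosome 16, 18776847 to 18778262) varied most of the 10 mRNAs in Control muscles, with a coefficient of variation of 17.9%. It ranged from 17.0 to 27.8 CPM in Control and from 17.3 to 24.3 CPM in *FRAIL1* muscles, with medians of 25.6 and 20.7, so the *FRAIL1* muscles lay inside the Control range. In the fit *Cldn5* was at a log2 fold change of -0.22 ± 0.120 (standard error; edgeR adjusted p = 0.238), and it did not pass the threshold under any of the 24 alternative settings.

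*Emcn* (endomucin, a sialomucin of capillary and venous endothelium; Gene ID 59308; chromosome 3, 137341062 to 137431069) had the fewest counts of the 10, between 487 and 794 per muscle. It ranged from 10.3 to 14.8 CPM in Control and from 9.06 to 14.8 CPM in *FRAIL1* muscles, with medians of 11.2 and 10.8, and the muscle numbered 5 was the highest in both groups. Over all muscles *Emcn* was at a log2 difference of -0.05 ± 0.121 (standard error; edgeR adjusted p = 0.810). It was 0.02 without Control muscle 5, 0.00 with *FRAIL1* muscle 2 left out and -0.15 with muscle 5 of that group left out, so no direction is given for it.

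*Aqp1* (the water channel of capillary endothelium, also carried by red blood cells; Gene ID 11826; chromosome 6, 55336299 to 55348555) was the most abundant of the 10 mRNAs and had the widest spread in *FRAIL1* muscles. It ranged from 441 to 492 CPM in Control and from 209 to 464 CPM in *FRAIL1* muscles, with medians of 465 and 348. For *Aqp1*, 5 of 6 *FRAIL1* muscles lay below the lowest Control muscle, and *FRAIL1* muscle 3, at 464 CPM, lay within the Control range. Means were 467 ± 18.4 CPM (SD, n = 6) and 341 ± 83.2 CPM (SD, n = 6). Its fitted log2 fold change was -0.45 ± 0.135 (standard error; edgeR adjusted p = 0.0572), outside the threshold. It was inside once *FRAIL1* muscle 3 was left out, at -0.56 and an adjusted p-value of 0.0120, and likewise with muscle 5 of that group left out, at -0.35 and 0.0219. With all 12 muscles *Aqp1* was also inside under upper-quartile scaling (adjusted p = 0.0492), with limma voom (0.0127) and with DESeq2 (0.0139).

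**Figure D2:**
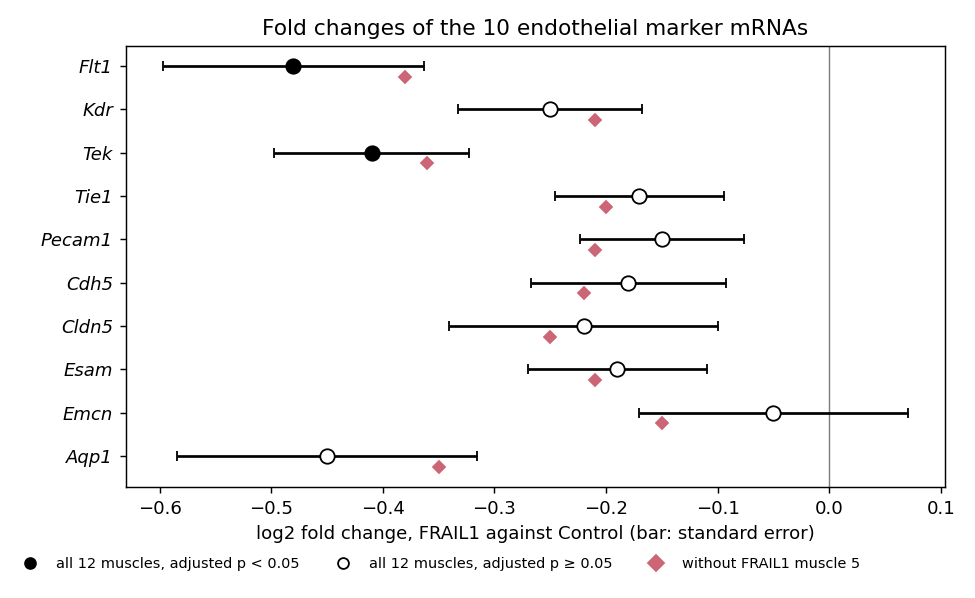
Circles are the log2 fold changes of the 10 marker mRNAs, FRAIL1 against Control (horizontal axis), with bars for the standard error, filled where the adjusted p-value by edgeR was under 0.05, and diamonds are the values without FRAIL1 muscle 5. Tek and Flt1 are filled at -0.41 and -0.48, and Emcn is nearest to 0 at -0.05.

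Compared per kilobase of merged exon length (all exons that GENCODE M21 annotates for a gene), *Aqp1* was the most abundant in Control muscles, at 178 ± 6.99 CPM per kilobase (SD, n = 6). *Cdh5* followed at 27.3 ± 2.32, *Pecam1* at 18.3 ± 0.762, *Cldn5* at 16.9 ± 3.02, *Tie1* at 14.5 ± 1.38, *Esam* at 12.1 ± 1.06, *Kdr* at 9.83 ± 0.917, *Tek* at 6.62 ± 0.176, *Flt1* at 3.78 ± 0.197 and *Emcn* at 2.17 ± 0.299 CPM per kilobase (SD, n = 6 each). Adjacent *Pecam1* and *Cldn5*, and *Cldn5* and *Tie1*, differed in level by less than the SD of *Cldn5*. In *FRAIL1* muscles the level of *Aqp1* was 130 ± 31.7 CPM per kilobase (SD, n = 6) and the order of the 10 levels did not change. No exon of the 10 genes overlapped an exon of another gene in this annotation.

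The muscles did not move all 10 mRNAs together. The mean log2 CPM of the 10, taken relative to the Control mean, lay between -0.07 and 0.09 in Control muscles. In *FRAIL1* muscles 1 to 6 it was -0.46, -0.24, -0.08, -0.28, -0.32 and -0.21, so 6 of 6 lay below the Control range. Muscle 3, at -0.08, was only just below the lowest Control muscle, at -0.07. How often the mean of other sets of genes separates in this way was not counted. The level in *FRAIL1* muscle 1 was lower than in any Control muscle for 9 of the 10, and only that of *Cldn5* was not. The share of all genes tested that lay below the Control range in that muscle was not counted, so this is a description only. *FRAIL1* muscle 5 was divided: relative to the Control mean *Aqp1* was at -1.16 and *Flt1* at -1.14 on the log2 scale in that muscle, *Tek* at -0.68 and *Kdr* at -0.46, while *Tie1* was at -0.05, *Cdh5* at -0.01, *Pecam1* at 0.14 and *Emcn* at 0.35. The summed level of the 10 was 945 to 1075 CPM in Control and 694 to 976 CPM in *FRAIL1* muscles, and *Aqp1* held 45.6% to 46.9% of that sum in Control muscles but 30.1% in *FRAIL1* muscle 5.

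**Figure D3:**
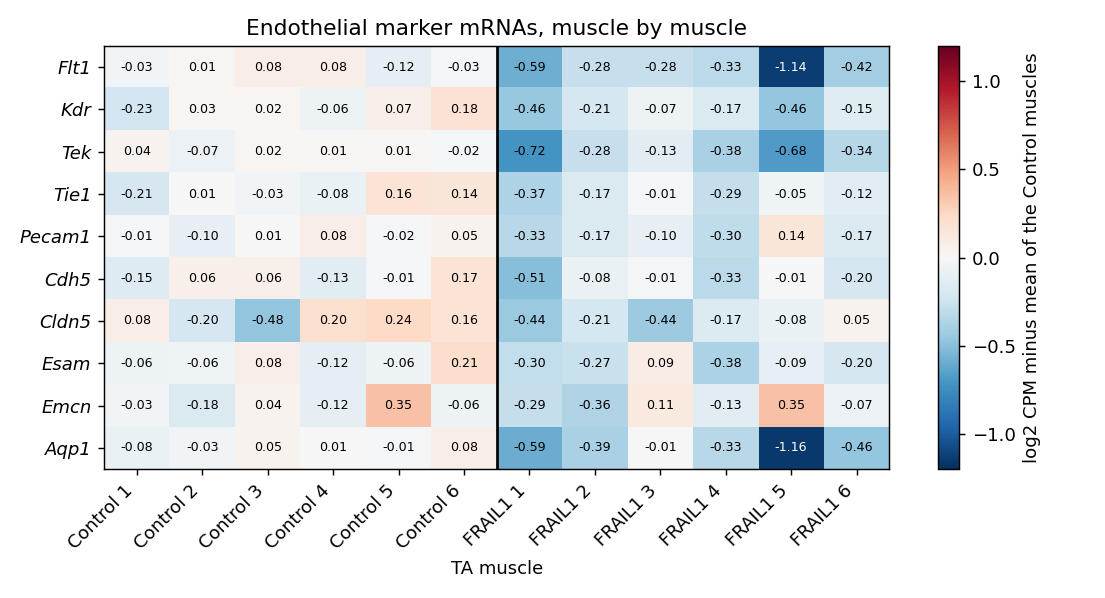
Each cell gives the log2 CPM of 1 marker mRNA (rows) in 1 TA muscle (columns) minus the mean of the Control muscles, blue where lower and red where higher. FRAIL1 muscle 1 is blue in all rows, while FRAIL1 muscle 5 ranges from -1.16 for Aqp1 to 0.35 for Emcn.

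After the group means were removed, the Pearson correlation of log2 CPM over the 12 muscles was above 0 for 29 of the 45 pairs of the 10 mRNAs, with a median of 0.27. Without *FRAIL1* muscle 5 it was above 0 for 40 of 45 pairs, with a median of 0.54. These correlations are descriptions, because the mRNAs share the same libraries and scaling. The closest pairs were *Flt1* with *Aqp1* (r = 0.92), *Cdh5* with *Tie1* (0.83) and *Tek* with *Aqp1* (0.81), and the lowest were *Flt1* with *Pecam1* and with *Emcn* (-0.60 each). Without *FRAIL1* muscle 5 the closest were *Kdr* with *Tie1* (0.89) and *Kdr* with *Cdh5* (0.85), and the 4 lowest pairs each held *Cldn5*. Outside the 10, the 6 mRNAs whose variation was most like their mean over 12 muscles were *Sh2d3c* (r = 0.91), *Fmo1* (0.91), *Vsig2* (0.91), *Sapcd1* (0.90), *Cavin2* (0.90) and *Zfp185* (0.88). They were picked for the highest r among all other genes tested, so values this high follow in part from the picking. Without *FRAIL1* muscle 5 these values lay between 0.88 and 0.94. The remaining muscles had also been used to pick the 6, so this is no separate check. *Sapcd1*, at a mean of 0.283 CPM in Control muscles, was near the lower end of detection.

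Whether a marker mRNA changed by another amount than the rest was tested on 12 differences that were chosen after the values were seen, each of the 10 against the mean of the other 9, *Flt1* against *Kdr* and *Tek* against *Tie1*. The log2 difference between *Flt1* and *Kdr* was -0.793 ± 0.167 in Control and -1.04 ± 0.219 in *FRAIL1* muscles (SD, n = 6), with p = 0.0346 and adjusted p = 0.114 (two-sided exact permutation test, 924 arrangements). The log2 difference between *Tek* and *Tie1* was -1.19 ± 0.158 in Control and -1.44 ± 0.209 in *FRAIL1* muscles (SD, n = 6), with p = 0.0368 and adjusted p = 0.114 by the same exact test. None of the 12 differences passed 0.05 after adjustment, and the lowest adjusted p-value was 0.114, or 0.229 without *FRAIL1* muscle 5. The arrangements treated the 12 muscles as unpaired, because the labels do not say which muscles came from the same mouse. A paired test was not run, so these p-values do not show what one would give.

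The other 32 pan-endothelial mRNAs, also listed with earlier results of these data known, were mostly in the same direction. Of these, 27 had a log2 fold change below 0, against 48.4% of all genes tested, and the median was -0.18. In edgeR's test 4 were called lower and 0 higher, where 1.85% and 4.43% of all genes tested were. At an unadjusted p-value under 0.05, 17 of the 32 differed, against 27.7% of all genes tested. The 4 were *Adgrf5* (an adhesion G protein-coupled receptor), *Podxl* (podocalyxin, a sialomucin of the vessel lumen), *Ptprb* (the phosphatase VE-PTP, which acts on TIE2 and VE-cadherin) and *Mmrn2* (an extracellular glycoprotein of endothelium). *Adgrf5* measured 109 to 125 CPM in Control and 65.3 to 107 CPM in *FRAIL1* muscles, so its groups did not overlap. It fell by 0.43 on the log2 scale ± 0.0915 (standard error; edgeR adjusted p = 0.0176) and passed the threshold under all 24 alternative settings. *Podxl* fell by 0.35 (adjusted p = 0.0297), *Ptprb* by 0.33 (adjusted p = 0.0481) and *Mmrn2* by 0.30 (adjusted p = 0.0279). Each of these 3 calls was lost when certain muscles were left out, for *Podxl* without Control 3, 5 or 6 or *FRAIL1* 1 or 6 (adjusted p between 0.0515 and 0.0661) and for *Mmrn2* without Control 3, 5 or 6 or *FRAIL1* 1 or 4 (0.0557 to 0.0639). *Ptprb* kept its call only without *FRAIL1* muscle 2 or 3, and in the other 10 fits its adjusted p-value lay between 0.0605 and 0.0996.

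mRNAs of single vessel types gave few calls. Of 10 capillary mRNAs, 10 had a log2 fold change below 0, against 48.4% of all genes tested, with a median of -0.26. But 0 were called by edgeR, and 3 had an unadjusted p-value under 0.05, against 27.7% of all genes tested. The capillary mRNAs with the most counts were *Cd36* (a fatty acid transporter), at a log2 fold change of -0.24 (adjusted p = 0.251), and *Sgk1* (a serine/threonine kinase), at -0.05 (adjusted p = 0.807). Without *FRAIL1* muscle 5 *Cd36* was at -0.15. Of 10 arterial mRNAs, 9 had a log2 fold change below 0 and the median was -0.27. An unadjusted p-value under 0.05 was found for 7 of these 10, against 27.7% of all genes tested. By edgeR 1 was called lower, against 1.85% of all genes tested. This was *Sema3g* (a secreted semaphorin of arterial endothelium), at 15.3 to 19.5 CPM in Control and 7.52 to 14.1 CPM in *FRAIL1* muscles. It fell by 0.54 ± 0.128 (standard error; edgeR adjusted p = 0.0266), and the call was lost without Control muscle 1, 3 or 5 or *FRAIL1* muscle 1 (adjusted p between 0.0515 and 0.0630). *FRAIL1* muscle 5 was the lowest for *Sema3g*, and without that muscle the log2 fold change was -0.44 (adjusted p = 0.00846). Of 10 venous mRNAs, 8 had a log2 fold change below 0 and the median was -0.17. An unadjusted p-value under 0.05 was found for 4 of these 10, against 27.7% of all genes tested. Called lower was 1, *Vwf* (von Willebrand factor), which fell by 0.25 (adjusted p = 0.0481). The *Vwf* call held only without *FRAIL1* muscle 2 or 3, and in the other 10 fits that left out 1 muscle the adjusted p-value lay between 0.0502 and 0.0931.

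mRNAs of lymphatic endothelium and of sprouting or activated endothelium gave 2 calls, both higher. Of 8 lymphatic mRNAs tested, the median was 0.10 and 0 were called by edgeR. At an unadjusted p-value under 0.05 there were 2, against 27.7% of all genes tested. The lymphatic mRNAs with the most counts were *Tbx1* (a transcription factor of lymphatic vessels and other cells), at a log2 fold change of 0.03 (adjusted p = 0.863), and *Thy1* (a surface glycoprotein also of fibroblasts), at 0.33 (adjusted p = 0.0745, and 0.0422 without *FRAIL1* muscle 3). Of 11 sprouting and activated mRNAs tested, the median was 0.05, or -0.04 without *FRAIL1* muscle 5. An unadjusted p-value under 0.05 was found for 4 of these 11, against 27.7% of all genes tested. Called higher were 2, against 4.43% of all genes tested. These were *Cd276* and *Cxcr4*, both of which other cells of muscle also express. *Cd276* (B7-H3, an immune checkpoint molecule) measured 6.27 to 8.20 CPM in Control and 9.87 to 23.0 CPM in *FRAIL1* muscles, and rose by 0.90 on the log2 scale ± 0.191 (standard error; edgeR adjusted p = 0.0196) with a call under all 24 alternative settings. *Cxcr4* (a chemokine receptor) rose by 0.60 (adjusted p = 0.0484), and its call held only without *FRAIL1* muscle 2, 3 or 5, with adjusted p-values between 0.0647 and 0.0989 in the other 9 fits. *FRAIL1* muscle 5 was the highest for both, at 23.0 CPM for *Cd276* and 17.4 CPM for *Cxcr4*, and without it the log2 fold changes were 0.68 and 0.43.

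Of 15 ligands, co-receptors and intracellular partners of the VEGF and TIE receptors that were tested, 2 were called lower and 0 higher. The shares of all genes tested were 1.85% and 4.43%. The median was -0.05, and 4 of the 15 had an unadjusted p-value under 0.05, against 27.7% of all genes tested. Called lower were *Ptprb*, given above, and *Shank3*, a scaffold protein best known from synapses. *Shank3* measured 30.5 to 36.1 CPM in Control and 26.3 to 30.7 CPM in *FRAIL1* muscles, and fell by 0.21 ± 0.0547 (standard error; edgeR adjusted p = 0.0386). The *Shank3* call was lost without Control muscle 1, 3, 4, 5 or 6 or *FRAIL1* muscle 1, 4 or 6, with adjusted p-values between 0.0616 and 0.0832. Of 13 intracellular and transmembrane partners at cell junctions, 0 were called by edgeR. An unadjusted p-value under 0.05 was found for 4, against 27.7% of all genes tested. The junction partners with the most counts were *Ctnnb1* (beta-catenin), at a log2 fold change of -0.12 (adjusted p = 0.162), and *Jup* (plakoglobin), at 0.08 (adjusted p = 0.578).

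**Figure D4:**
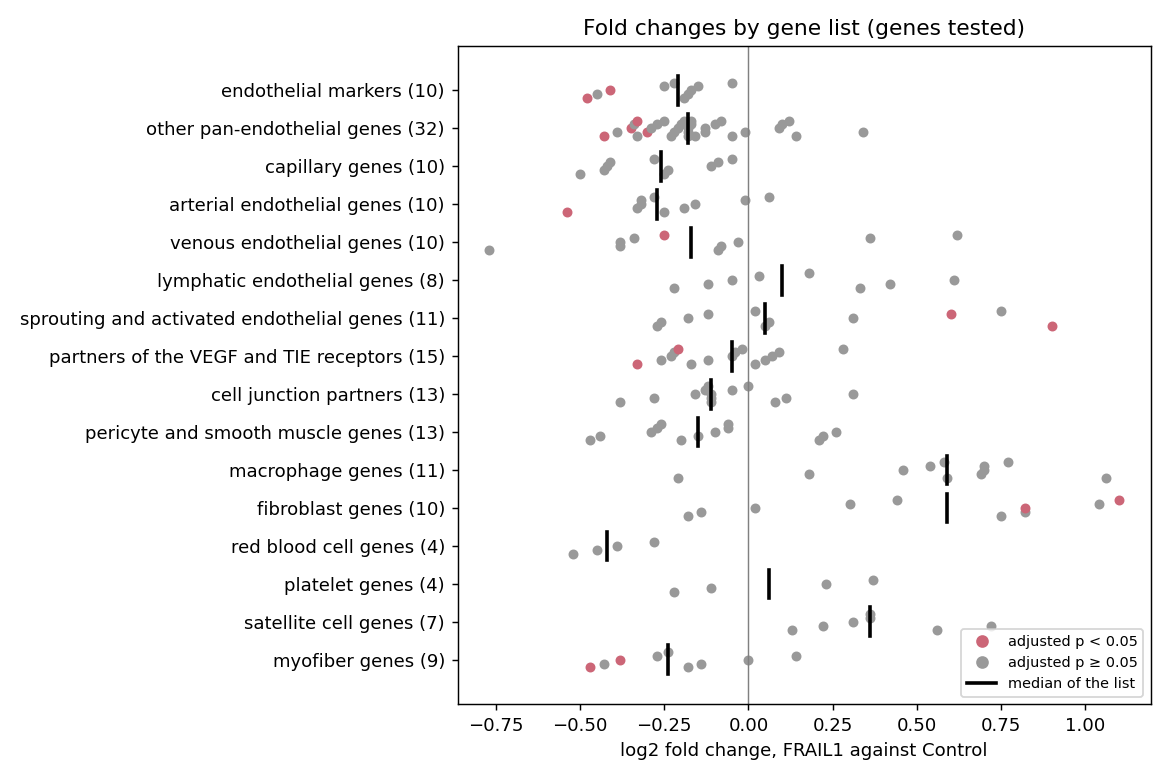
Each point is the log2 fold change of 1 gene, FRAIL1 against Control (horizontal axis), in the list named on the left with the number of genes tested, red where the adjusted p-value by edgeR was under 0.05, and the black bar is the list's median. The 10 endothelial markers have a median of -0.21, while the macrophage and fibroblast lists have a median of 0.59 each.

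Of the macrophage and fibroblast mRNAs that were listed, 2 passed the test, and the part of these cells in the result for the endothelial mRNAs was not tested. Macrophage mRNAs had a median log2 fold change of 0.59, and 0 of 11 were called by edgeR. At an unadjusted p-value under 0.05 there were 7 of 11, against 27.7% of all genes tested. The summed level of the macrophage mRNAs was 253 to 399 CPM in Control and 320 to 813 CPM in *FRAIL1* muscles. Those with the most counts were *Lyz2* (lysozyme 2), at 0.77 (adjusted p = 0.107, and 0.0448 without *FRAIL1* muscle 3), and *C1qa* (a complement subunit), at 0.70 (adjusted p = 0.0595, 0.0340 and 0.0179 with *FRAIL1* muscle 2 or 3 left out). Of 10 fibroblast mRNAs, 2 were called higher, against 4.43% of all genes tested. An unadjusted p-value under 0.05 was found for 6 of these 10, against 27.7% of all genes tested. Fibroblast mRNAs had a median of 0.59, or 0.40 without *FRAIL1* muscle 5. Their summed level was 1315 to 2431 CPM in Control and 2499 to 6297 CPM in *FRAIL1* muscles, or to 3197 CPM without muscle 5. *Pdgfrl* rose by 1.10 (adjusted p = 0.0151), with a call under all 24 alternative settings. *Col1a2* (a collagen I chain) rose by 0.82 (adjusted p = 0.0472). Its call held in 3 of the 12 fits that left out 1 muscle, without Control 6 and without *FRAIL1* 2 or 3. In the others the adjusted p-values were from 0.0501 to 0.0929. Without *FRAIL1* muscle 5 the log2 fold changes were 0.83 for *Pdgfrl* and 0.59 for *Col1a2*.

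Markers of cells of the vessel wall and of the blood gave no calls in the main fit. Of 13 pericyte and smooth muscle mRNAs, 0 were called by edgeR and 4 had an unadjusted p-value under 0.05, against 27.7% of all genes tested. The median log2 fold change was -0.15, with 10 of the 13 lower and 3 higher, from -0.47 (*Kcnj8*, adjusted p = 0.0520) to 0.26 (*Mcam*, adjusted p = 0.244). Those with the most counts were *Abcc9* (a potassium channel subunit of pericytes and muscle), at -0.15 (adjusted p = 0.319), and *Acta2* (smooth muscle actin), at 0.22 (adjusted p = 0.163). Of red blood cell mRNAs, 4 were tested, with 0 calls and 0 at an unadjusted p-value under 0.05, and a median of -0.42, which was -0.24 without *FRAIL1* muscle 5 and 0.00 without Control muscle 2. Their summed level ranged from 14.7 to 62.2 CPM in Control and from 7.39 to 31.2 CPM in *FRAIL1* muscles, where muscle 5 was the lowest. *Hba-a1* and *Hbb-bs*, which share sequence with near-identical hemoglobin genes, were at -0.45 (adjusted p = 0.501) and -0.52 (adjusted p = 0.478). Control muscle 2 held the most of both, and without it *Hba-a1* was at -0.06 and *Hbb-bs* at -0.02. Of 4 platelet mRNAs tested, 0 were called and 0 had an unadjusted p-value under 0.05, with *Pf4* (platelet factor 4) at 0.23 (adjusted p = 0.445) and *Gp1ba* (a platelet adhesion receptor) at -0.22 (adjusted p = 0.333).

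Myofiber and satellite cell mRNAs are given as well, and their part in the result for the endothelial mRNAs was not tested. Of 9 myofiber mRNAs, 2 were called lower, against 1.85% of all genes tested. An unadjusted p-value under 0.05 was found for 5 of these 9, against 27.7% of all genes tested. The median of the myofiber mRNAs was -0.24, a value close to that of the endothelial mRNAs. *Ckm* (muscle creatine kinase) measured 12444 ± 964 CPM in Control and 9556 ± 1615 CPM in *FRAIL1* muscles (SD, n = 6), which is -0.38 on the log2 scale (edgeR adjusted p = 0.0482). *Aqp4* (the water channel of the fiber membrane) measured 48.6 ± 9.10 CPM and 35.1 ± 5.31 CPM (SD, n = 6), which is -0.47 on the log2 scale (adjusted p = 0.0441). Both calls were lost in 9 of the 12 fits that left out 1 muscle. For *Ckm* these were the fits without each of the 6 Control muscles and without *FRAIL1* 1, 4 or 6 (adjusted p between 0.0628 and 0.0912), and for *Aqp4* those without Control 1, 2, 3, 4 or 6 and without *FRAIL1* 1, 4, 5 or 6 (0.0590 to 0.0859). Of 7 satellite cell mRNAs, 0 were called by edgeR and the median was 0.36. At an unadjusted p-value under 0.05 there were 4, against 27.7% of all genes tested. The satellite cell mRNAs with the most counts were *Cdh15* (M-cadherin), at 0.13 (adjusted p = 0.186), and *Myod1* (a myogenic transcription factor), at 0.36 (adjusted p = 0.0725).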

How the data were processed

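The authors trimmed reads with Trimmomatic, aligned them to mm10 with STAR 2.7.8a and counted reads per gene with featureCounts 2.0.1, and the deposited values are raw counts per NCBI Gene ID, 6 Control and 6 FRAIL1 muscles. The strand setting of the counting is not given in the sources used here. Gene names and positions are from RefSeq (GRCm38.p6), which matched 25275 of 27179 IDs (unmatched IDs held 0.28% of counts), and exon lengths from GENCODE M21. Depth per muscle was 44848322 to 60527385 counts, and the fewest counts of any of the 10 mRNAs in a muscle were 487.

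From these counts, 15502 genes passed filterByExpr and were fitted in edgeR 4.0.16 (R 4.3.3) with glmQLFit (robust) and glmQLFTest, TMM scaling and Benjamini-Hochberg adjustment, threshold 0.05. The standard error is the log2 fold change divided by the square root of F. Correlations used log2 CPM with a prior count of 2. Alternatives were other scalings and filters, a fit that was not robust, limma 3.58.1 voom, DESeq2 1.42.0, a block by replicate number, and leaving out muscles.

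The 10 mRNAs and all lists were chosen with earlier results of these data known. Named were all 10, from each list the called genes (at most 4, by fold change) or otherwise the 2 with the most counts, and the 6 other genes most like the mean of the 10. Labels do not say which muscle pairs came from 1 mouse.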

Additional observations from a re-analysis of the deposited data

Results flagged for a closer look

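In 6 of 80 sets of 6 muscles that were examined for the genes named, 1 muscle lay far from the other 5 by Dixon's criterion on the gap to the nearest muscle, where chance alone gives about 1 in 20. Among the 10 endothelial mRNAs this concerned only *Emcn*, at 14.8 CPM in Control muscle 5 with the next Control muscle at 11.9 CPM. *FRAIL1* muscle 5 stood out for *Cd276*, at 23.0 CPM with the next at 14.8 CPM, for *Col1a2*, at 1307 CPM with the next at 765 CPM, and for *Pdgfrl*, at 12.5 CPM with the next at 6.75 CPM. Control muscle 2 stood out for *Hba-a1*, at 30.3 CPM with the next at 15.9 CPM, and for *Hbb-bs*, at 17.6 CPM with the next at 7.72 CPM.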

How the results depend on the processing

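The median log2 fold change of the 10 endothelial mRNAs lay between -0.24 and -0.17 under all 24 alternatives, and *Tek* was called in all of them. The number of the 10 called lower was 2. It was 3 under upper-quartile scaling (with *Aqp1*), 4 with limma voom (with *Aqp1* and *Pecam1*), with the DESeq2 Wald test (with *Aqp1* and *Kdr*) and without both muscles numbered 5, and it ranged from 1 to 5 when 1 muscle was left out (4 without *FRAIL1* muscle 5, 5 without *FRAIL1* muscle 3). Of all genes tested 974 were called in either direction, of which 287 were lower. In either direction it was 1836 with voom, 2232 with DESeq2, and 364 to 2110 when 1 muscle was left out. These totals hold both directions, unlike the number of the 10 called lower. The log2 fold change of *Emcn* ranged from -0.15 to 0.02, that of *Sgk1* from -0.11 to 0.02 and that of *Tbx1* from -0.03 to 0.07 when 1 muscle was left out. The cause of these changes was not tested. The median of the platelet mRNAs was 0.06 and, with at least 10 counts required in every muscle, 0.23 after *Ppbp* was filtered out. No scaling moved the median of all genes by more than 0.1.

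With the replicate number as a block, 4 of the 10 were called lower (*Aqp1* at an adjusted p of 0.0255 and *Kdr* at 0.0264 besides *Tek* and *Flt1*) and 2186 of all genes (6.62% lower). Of the other lists, the block gave 12 of 32 pan-endothelial, 5 of 10 capillary, 5 of 10 arterial and 2 of 10 venous mRNAs called lower. Also lower were 3 of 15 receptor partners, 2 of 13 junction partners, 2 of 13 pericyte and smooth muscle and 3 of 9 myofiber mRNAs. Called higher were 6 of 11 macrophage, 3 of 7 satellite cell and 2 of 11 sprouting and activated mRNAs. So were 1 of 10 fibroblast, 1 of 8 lymphatic and 1 of 32 pan-endothelial mRNAs (7.48% of all genes higher). *Col1a2* lost its call (adjusted p = 0.0642). With the block in DESeq2, 6 of the 10 endothelial mRNAs were called lower, and 2898 of all genes in either direction. With the block in edgeR and without both muscles numbered 5, 8 of 10 were called lower, and 2305 of all genes in either direction. For these last fits the share of all genes called lower was not counted, so their counts of the 10 are descriptions only. Deviations from the group means correlated between muscles of the same number at 0.254, 0.162, 0.282, 0.263, 0.0547 and 0.185 for numbers 1 to 6, and both muscles correlated best with their own number for 5 of 6 numbers. As number 5 was under 0.1 and the labels do not tie numbers to mice, the pairing was not used for the main values.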
